A study of Mus musculus with 4 samples.

Results

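Insulin and the insulin-like growth factors act through related receptors whose messages were measured here in RAW 264.7 cells, a mouse macrophage line. The genes described are 7 of the 24422 named in the data: the ligand Igf1, the binding protein Igfbp4, the receptors Igf1r, Insr and Igf2r, and the receptor substrates Irs1 and Irs2. They were taken by symbol with earlier results of these data known, so their p-values are not independent evidence. The transcript that stands for each gene was chosen by its mean raw count over the 4 libraries, the highest being kept. For Igf1 that was NM_010512 with a mean of 122.5 counts, just above NM_001111275 with 112, and for Insr NM_001330056 with 715, just above NM_010568 with 712.5. The other 5 genes had 1 transcript each.

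The libraries were made from poly(A) RNA of cells stably carrying Dnm3os in pcDNA 3.1(+) (2 libraries) and of cells stably carrying the empty plasmid (2 libraries). Dnm3os is a long noncoding RNA transcribed opposite to the gene Dnm3, and the series title describes it as diabetes-induced. Both groups were grown at 5.5 mmol/L glucose and used between passages 3 and 6, and the labels name no other agent. Whether a group's 2 libraries are separate cultures or clones is not stated, so the spread behind each p-value may be technical.

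IGF1 is a secreted peptide that binds the receptor tyrosine kinase IGF1R and, more weakly, the insulin receptor. The activated receptors phosphorylate the docking proteins IRS1 and IRS2, which recruit PI3-kinase and so switch on AKT and mTOR and hold FOXO transcription factors out of the nucleus. Macrophages are a known source of IGF1 in tissues, and binding proteins such as IGFBP4 hold the peptide away from its receptor.

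The plasmid's gene was present where the labels place it, with 208 and 260 counts of Dnm3os in the Dnm3os libraries and 0 in both empty vector libraries. Taking 3 counts over both empty vector libraries as the limit that a count of 0 allows (counting error only), it was at least 184-fold higher. Total counts over 1 transcript per gene ranged from 29329201 to 39640782 per library. Macrophage markers were all expressed (9 of 9 tested), and their levels in CPM (counts scaled to library size) were summed. The sum was 9750 to 10200 CPM in the Dnm3os libraries and 8880 to 9040 CPM in the empty vector libraries. Most of it was Lyz2, with a mean of 7440 CPM over the 4 libraries. Not every marker followed the sum, Adgre1 being lower in Dnm3os cells (log2 fold change -0.3, adjusted p = 2.96e-06 by edgeR). Lists of fibroblast, epithelial, T cell and B cell markers summed to at most 0.273 CPM in any library, and Epcam, Cd3e and Pdgfra had 0 counts in all 4. The endothelial list reached 2.21 CPM and the neutrophil list, nearly all of it S100a8, 5.97 CPM, while Ly6g and Mpo had 0 counts.

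In outline, cells carrying Dnm3os had more Igf1 and less Igfbp4 message, Igf2r was slightly lower, Insr did not pass the test, and Igf1r, Irs1 and Irs2 had no counts in any library. Of the 4 genes with enough counts to be tested, 1 was higher and 2 were lower at an adjusted p under 0.05 (edgeR's quasi-likelihood F test, two-sided, with Benjamini-Hochberg adjustment over 13136 genes). Over all genes tested, 12.2% passed, 6.48% being higher and 5.77% lower in the Dnm3os libraries. Dnm3os and empty vector values were fully separate for all 4 of them, and for 51.2% of all genes tested. Leaving out either Dnm3os library, or empty vector library 2, left 1 of them called lower, and leaving out empty vector library 1 gave 3. In bulk RNA, fewer cells making a message and less of it per cell cannot be told apart.

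Igf1, the ligand, had 167 and 235 counts in the Dnm3os libraries, against 39 and 49 counts in the empty vector libraries. Scaled to library size these were 5.69 and 6.88 CPM in the Dnm3os libraries and 0.981 and 1.39 CPM in the empty vector libraries. Both Dnm3os libraries thus lay well above both empty vector libraries, while library 2 was the higher within each group. Igf1 averaged 6.28 ± 0.837 CPM in Dnm3os cells and 1.19 ± 0.290 CPM in empty vector cells (SD, n = 2 each), a 5.35-fold rise (log2 fold change 2.42 ± 0.18, SE; adjusted p = 8.27e-10 by edgeR). Only 0.358% of all genes tested had a larger log2 fold change in either direction. By CPM averaged over all 4 libraries, and not scaled to transcript length, Igf1 ranked above 21.5% of the genes tested.

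**Figure D1:**
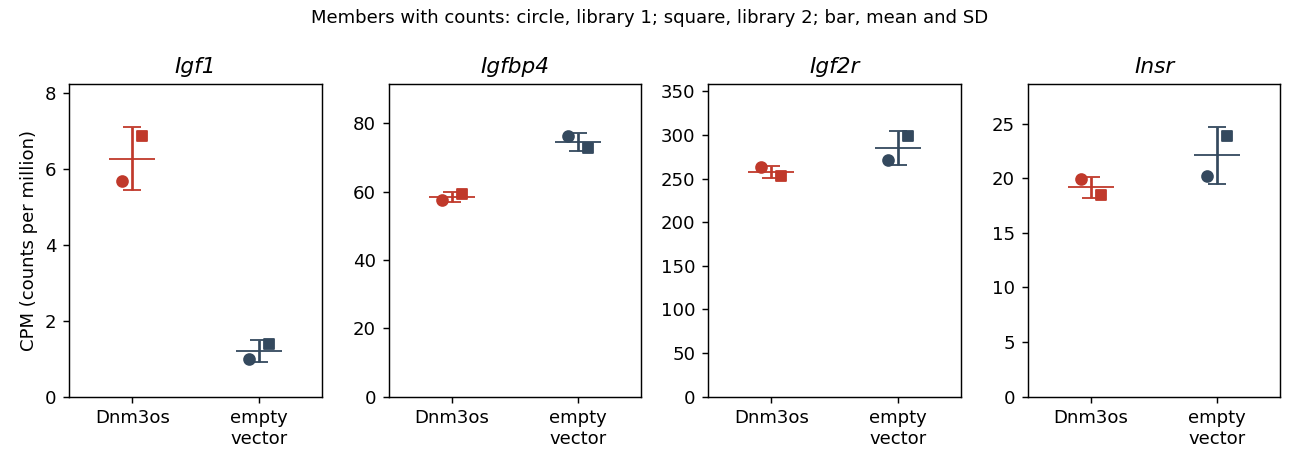
Level in CPM (vertical axes, starting at 0) of the 4 genes with counts, in Dnm3os and empty vector cells. Circles are library 1, squares library 2, bars the mean with its SD (n = 2 each). Igf1 averaged 6.28 CPM in Dnm3os cells and 1.19 CPM in empty vector cells, and the other 3 genes had lower mean levels in Dnm3os cells, by a smaller fold.

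The rise in Igf1 was seen at each of its annotated transcripts, which differ in their leader exons and in the tail of the precursor peptide. NM_001111275 had 155 and 210 counts in the Dnm3os libraries, against 38 and 46 in the empty vector libraries. NM_001111276, the transcript with the fewest counts, had 137 and 179 in the Dnm3os libraries, against 34 and 40 in the empty vector libraries. The ratio of mean CPM, Dnm3os over empty vector, ran from 4.95 at NM_001314010 to 5.30 at the kept NM_010512. These transcripts share most of their reads, so they are repeats of 1 measurement and not separate evidence. With the counts of all transcripts of a gene summed, the log2 fold change was 2.36 ± 0.14 (SE). That sum counts shared reads more than once, so its SE is no sign of added precision.

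**Figure D2:**
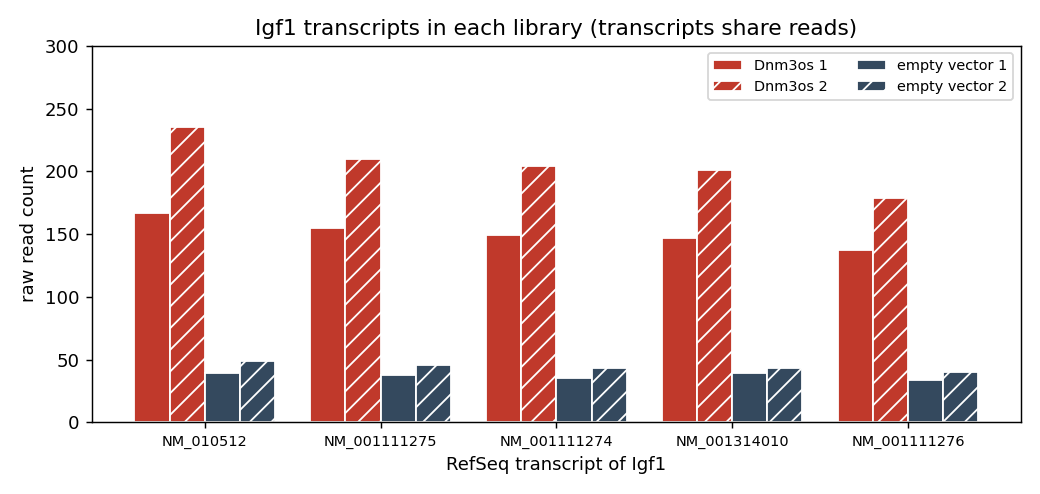
Raw read counts (vertical axis) of the RefSeq transcripts of Igf1 in each library, red for Dnm3os and dark blue for empty vector, plain for library 1 and hatched for library 2. At every transcript both Dnm3os libraries, with 137 to 235 counts, stood above both empty vector libraries, with 34 to 49.

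Igfbp4, a secreted protein that binds IGFs and mostly restrains them, had 1686 and 2030 counts in the Dnm3os libraries, against 3034 and 2558 counts in the empty vector libraries. Its level was 57.5 and 59.4 CPM in the Dnm3os libraries, against 76.3 and 72.6 CPM in the empty vector libraries. Both Dnm3os libraries were below both empty vector libraries, and the gap was several times the spread within either group. Igfbp4 averaged 58.4 ± 1.36 CPM in Dnm3os cells and 74.5 ± 2.61 CPM in empty vector cells (SD, n = 2 each), 21.5% lower by the fit (log2 fold change -0.35 ± 0.04, SE; adjusted p = 2.75e-06 by edgeR). The call held under all 12 alternative settings tried, with log2 fold changes from -0.38 to -0.32.

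The promoter of Igfbp4 is shown because, of the 6 member windows at hand, it was the one with TATA box letters. The 250 bases before the RefSeq start are given 5′ to 3′ on GRCm38.p6, a later build than the mm9 named in the submitters' processing notes. Capitals mark the TATA box letters TATAAA, 28 to 23 bases before the start.
Igfbp4, chr11:99040994-99041243, plus strand: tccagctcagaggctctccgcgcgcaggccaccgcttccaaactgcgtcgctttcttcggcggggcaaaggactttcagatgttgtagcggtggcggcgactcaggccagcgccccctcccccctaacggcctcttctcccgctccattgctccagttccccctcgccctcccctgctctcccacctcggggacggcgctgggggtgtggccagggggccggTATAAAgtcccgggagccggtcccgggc
TATAAA, searched on both strands, occurs in 12.4% of the 32851 RefSeq promoter windows of the same length. The window holds no match to GTAAACA (the FOXO core), TTCNNNGAA (STAT), GAGGAAGT (PU.1), TGANTCA (AP-1) or CCAAT (the CAAT box), each searched on both strands.

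PAPP-A, the protease known to cleave IGFBP4 and so free IGF, is encoded by Pappa. It was near the detection limit, with 18 and 28 counts in the Dnm3os libraries and 25 and 24 in the empty vector libraries. Stc2, which encodes an inhibitor of PAPP-A, averaged 7.71 ± 1.01 CPM in Dnm3os cells and 6.83 ± 1.15 CPM in empty vector cells (SD, n = 2 each), and neither gene passed the test (adjusted p = 0.866 for Pappa and 0.467 for Stc2 by edgeR). Of the 16 genes of this role, 4 could be tested, and 0 rose and 0 fell by edgeR, DESeq2 or limma-voom, with 0 at an unadjusted p under 0.05 by edgeR. Over all genes tested edgeR called 12.2%, so 0 of 4 does not show that the role was unchanged. Of the other ligands and binding proteins, Ins1, Ins2, Igfbp1, Igfbp2, Igfbp3 and Igfbp5 had 0 counts in all 4 libraries, and Igf2 had 0 and 1 counts in the Dnm3os libraries, against 1 and 2 in the empty vector libraries. Igfbp7 had 28 and 14 counts in the Dnm3os libraries, against 18 and 20 in the empty vector libraries, so Igf1 and Igfbp4 carried nearly all counts of IGF ligands and IGF binding proteins. Pathway genes named here and below, other than the 7, were chosen with their values known. Called genes were taken by their adjusted p, and the others after their values were seen.

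Igf2r, which clears IGF2 from the cell surface and, as the large mannose 6-phosphate receptor, carries newly made acid hydrolases to lysosomes, was the most abundant of the 7. It had 7718 and 8662 counts in the Dnm3os libraries, against 10772 and 10538 counts in the empty vector libraries. Scaled, these were 263 and 253 CPM in the Dnm3os libraries, against 271 and 299 CPM in the empty vector libraries. The groups did not overlap, but the nearest libraries, Dnm3os 1 and empty vector 1, lay closer together than the empty vector libraries did. Igf2r averaged 258 ± 6.83 CPM in Dnm3os cells and 285 ± 20.0 CPM in empty vector cells (SD, n = 2 each), 9.40% lower by the fit (log2 fold change -0.14 ± 0.04, SE; adjusted p = 0.0379 by edgeR). That call was lost under 6 of the 12 alternatives, among them DESeq2 (adjusted p = 0.0530), limma-voom (adjusted p = 0.0639) and leaving out Dnm3os library 1 (-0.17, adjusted p = 0.132), Dnm3os library 2 (-0.12, adjusted p = 0.319) or empty vector library 2 (-0.07, adjusted p = 0.323, all by edgeR). Without empty vector library 1 it was -0.22 (adjusted p = 2.59e-05 by edgeR).

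Insr, the insulin receptor, had 583 and 633 counts in the Dnm3os libraries, against 804 and 841 counts in the empty vector libraries. At 19.9 and 18.5 CPM in the Dnm3os libraries, against 20.2 and 23.9 CPM in the empty vector libraries, the groups did not overlap, yet Dnm3os library 1 and empty vector library 1 were almost level. Insr averaged 19.2 ± 0.957 CPM in Dnm3os cells and 22.1 ± 2.58 CPM in empty vector cells (SD, n = 2 each), and the difference did not pass (log2 fold change -0.20 ± 0.08, SE; adjusted p = 0.118 by edgeR). With all 4 libraries and no filter on low counts, Insr did pass (-0.20, adjusted p = 0.0456 by edgeR). As for Igf2r, empty vector library 2 was the highest and Dnm3os library 2 the lowest. Without empty vector library 1 the gene passed (-0.32, adjusted p = 0.00428 by edgeR), and without empty vector library 2 the difference was -0.08 (adjusted p = 0.754 by edgeR). Both deposited transcripts of Insr gave nearly the same counts, the ratio of mean CPM, Dnm3os over empty vector, being 0.871 at NM_001330056 and 0.869 at NM_010568.

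Igf1r, the receptor with the highest affinity for IGF1, had 0 counts in each Dnm3os library and in each empty vector library. Irs1 and Irs2, the docking proteins that couple both receptors to PI3-kinase, likewise had 0 counts in all 4 libraries. A count of 0 allows up to 3 counts over a group, or 0.0472 CPM in the Dnm3os group and 0.0400 CPM in the empty vector group, counting error only. Each of these genes is represented by 1 deposited transcript, and 30.9% of the 24422 named genes also had 0 counts throughout. The same was true of Irs4 and of the docking protein gene Gab1, while Irs3 had 0 and 2 counts in the Dnm3os libraries, against 3 and 0 in the empty vector libraries. At Igf1 and Insr, transcripts of the same gene had similar counts, so the reads they share were counted at each. The rule for reads on overlapping genes is not given in the sources used here. Hence a 0 set by that rule and an absence of reads cannot be told apart. These counts of 0 therefore do not show that the genes were silent, and no difference between the groups could be measured for them.

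The promoters of Igf1r and Irs2 are shown because these genes had 0 counts, whether from absence of reads or from the counting rule, and because they and Irs1 share a dense run of CpG dinucleotides, which the choice of genes did not use. Capitals in the Irs2 sequence mark CCAAT (the CAAT box, found on each strand once), at 137 to 133 and at 101 to 97 bases before the start, and Igf1r holds none of the motifs searched. Sequences run 5′ to 3′ and are RefSeq's on GRCm38.p6.
Igf1r, chr7:67952007-67952256, plus strand: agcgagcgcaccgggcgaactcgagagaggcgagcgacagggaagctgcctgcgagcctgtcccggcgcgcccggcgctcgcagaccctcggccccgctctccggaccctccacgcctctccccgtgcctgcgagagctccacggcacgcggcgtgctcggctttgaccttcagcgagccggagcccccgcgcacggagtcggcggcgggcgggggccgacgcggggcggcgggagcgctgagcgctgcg
Irs2, chr8:11008930-11009179, minus strand: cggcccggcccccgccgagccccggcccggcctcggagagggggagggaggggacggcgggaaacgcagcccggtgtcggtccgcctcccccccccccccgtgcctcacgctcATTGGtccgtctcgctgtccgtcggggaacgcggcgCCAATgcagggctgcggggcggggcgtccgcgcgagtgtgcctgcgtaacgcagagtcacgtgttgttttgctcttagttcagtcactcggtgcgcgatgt
The 250-base window of Igf1r holds 42 CpG dinucleotides, that of Irs2 34 and that of Irs1 28, against a median of 6 over the 32851 windows. Of all windows, 99.1% had fewer CpG than Igf1r, 96.5% fewer than Irs2 and 92.4% fewer than Irs1. Igf2r and Igfbp4, which had counts in every library, had dense windows too, with 27 and 22 CpG, whereas the Igf1 window held 5. That Igf1 window is not printed because GENCODE transcripts of the gene run through it. CCAAT occurs in 33.8% of all windows, and the FOXO core GTAAACA, in 3.17% of them, was found in none of the 6 member windows at hand.

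Levels of different genes can be compared only per length, here as CPM per kilobase of the matching GENCODE transcript. Igf2r stood highest, with 29.1 CPM per kilobase in Dnm3os cells and 32.1 in empty vector cells, and Igfbp4 followed with 15.3 in Dnm3os cells and 19.4 in empty vector cells. Insr, through its transcript NM_010568, had 2.04 CPM per kilobase in Dnm3os cells and 2.35 in empty vector cells. Igf1 had 3.76 CPM per kilobase in Dnm3os cells and 0.709 in empty vector cells on the kept transcript of 1.67 kb. On its 0.65 kb transcript Igf1 had 8.49 in Dnm3os cells and 1.61 in empty vector cells. On the 7.05 kb transcript Igf1 had 0.810 in Dnm3os cells and 0.160 in empty vector cells. Its place relative to Insr in Dnm3os cells therefore depends on the transcript length assumed, whereas Igf2r and Igfbp4 kept the top of the order in both groups.

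**Figure D3:**
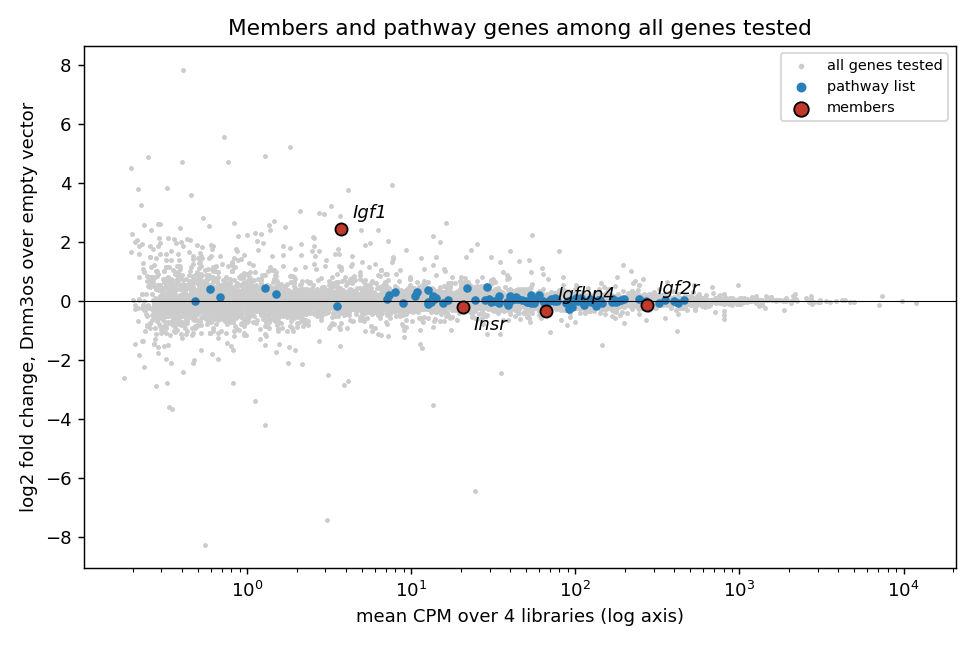
Log2 fold change, Dnm3os over empty vector (vertical axis), against mean CPM over the 4 libraries (horizontal log axis) for all genes tested except Dnm3os itself. Grey points are all genes, blue points the pathway list and red points the 4 members tested. Igf1 lies at 2.42 and the other 3 lie between -0.35 and -0.14.

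The rest of the insulin and IGF pathway was described from a list of 118 other genes arranged by role. Of these, 90 could be tested, and 2 rose, 4 fell and 84 did not pass, which is 6.67% called against 12.2% of all genes tested. The median log2 fold change was 0.00 over the tested pathway genes, the same as over all genes, and the range was -0.29 to 0.47. Of all genes tested, 6.48% were called higher and 5.77% lower. Dnm3os and empty vector values were fully separate for 41 of the 90 pathway genes, and for 51.2% of all genes tested. Without empty vector library 2, 9 pathway genes were called higher, and DESeq2 called 1. Wherever a count of 0 is given below for a role and direction, DESeq2 and limma-voom also called 0.

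Among the inhibitors of the receptors and of PI3-kinase signalling, 2 of 11 tested rose and 0 fell. The share called was 18.2%, against 12.2% of all genes tested, and rests on these 2 genes. Socs3, a cytokine-induced inhibitor that can also bind the insulin receptor and its substrates, was 24.3 and 25.9 CPM in the Dnm3os libraries, against 20.5 and 16.6 CPM in the empty vector libraries. All Dnm3os values were above all empty vector values, and Socs3 rose by 0.44 ± 0.08 on the log2 scale (adjusted p = 0.00220 by edgeR), a call lost without Dnm3os library 2 (adjusted p = 0.0855 by edgeR). Ptpn1, the tyrosine phosphatase PTP1B that dephosphorylates the insulin receptor, was 55.8 and 57.8 CPM in the Dnm3os libraries, against 49.8 and 50.7 CPM in the empty vector libraries (0.18 ± 0.05; adjusted p = 0.0106 by edgeR). Its call was lost by DESeq2 (adjusted p = 0.128), without Dnm3os library 2 (adjusted p = 0.170) and without empty vector library 1 (adjusted p = 0.0802, both by edgeR). Trib3, a pseudokinase that binds AKT, had the highest log2 fold change of the role, 0.47 ± 0.15, and did not pass (adjusted p = 0.155 by edgeR). The median log2 fold change of the role was 0.05, and 0 members were lower at an unadjusted edgeR p under 0.05.

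Of the 26 PI3-kinase, AKT and mTOR genes, 0 rose, 2 fell and 24 did not pass (median log2 fold change -0.01). The share called was 7.69%, against 12.2% of all genes tested. By edgeR 2 were higher at an unadjusted p under 0.05. Pik3cb, the catalytic subunit p110 beta, was 82.7 and 81.0 CPM in the Dnm3os libraries, against 102 and 98.8 CPM in the empty vector libraries (-0.29 ± 0.04; adjusted p = 4.39e-06 by edgeR). Rptor, the raptor subunit that brings substrates to mTOR complex 1, was 123 and 127 CPM in the Dnm3os libraries, against 138 and 146 CPM in the empty vector libraries (-0.18 ± 0.03; adjusted p = 0.000692 by edgeR). Both genes had every Dnm3os value below every empty vector value and were called under all 12 alternatives. The other catalytic subunits Pik3ca (0.00 ± 0.04) and Pik3cd (-0.01 ± 0.04), the kinase genes Akt1 (-0.02 ± 0.03), Akt2 (-0.07 ± 0.04) and Mtor (-0.01 ± 0.04) did not pass.

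In the group of receptor processing, adaptors and the Ras-MAPK arm, 0 of 16 tested rose and 1 fell. At an unadjusted p under 0.05 by edgeR, 1 was higher. The share called was 6.25%, against 12.2% of all genes tested. The gene that fell was Mapk3, encoding the kinase ERK1, with 87.4 and 89.4 CPM in the Dnm3os libraries, against 104 and 101 CPM in the empty vector libraries (-0.22 ± 0.04; adjusted p = 0.000189 by edgeR, called under all 12 alternatives). The IRS genes and Gab1 had counts at 0 or near it, which do not show that they were silent. Among the adaptors with counts, Gab2 averaged 42.0 ± 0.184 CPM in Dnm3os cells and 37.8 ± 6.66 CPM in empty vector cells (SD, n = 2 each). Shc1 averaged 123 ± 2.12 CPM in Dnm3os cells and 128 ± 4.21 CPM in empty vector cells (SD, n = 2 each). Grb2 averaged 143 ± 0.635 CPM in Dnm3os cells and 139 ± 2.11 CPM in empty vector cells (SD, n = 2 each). None of these 3 passed the test.

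Of the 10 genes that work with Igf2r in mannose 6-phosphate sorting, 0 rose and 1 fell. At an unadjusted p under 0.05 by edgeR, also 0 were higher. The share called was 10%, against 12.2% of all genes tested. Gnptab, which encodes part of the enzyme that puts the tag on lysosomal hydrolases, was 111 and 106 CPM in the Dnm3os libraries, against 120 and 117 CPM in the empty vector libraries (-0.13 ± 0.04; adjusted p = 0.0143 by edgeR). Its call was lost by DESeq2 (adjusted p = 0.124), with isoforms summed (adjusted p = 0.0537 by edgeR) and without Dnm3os library 2 (adjusted p = 0.237 by edgeR). M6pr, the smaller sorting receptor, averaged 317 ± 4.17 CPM in Dnm3os cells and 330 ± 1.22 CPM in empty vector cells (SD, n = 2 each) and did not pass (adjusted p = 0.256 by edgeR).

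Of the 13 FOXO factors and target genes tested, 0 rose and 0 fell, against 12.2% called of all genes tested. Their median log2 fold change was 0.06. By edgeR 3 were higher and 0 lower at an unadjusted p under 0.05, the nearest to passing being the stress gene Gadd45a (0.31 ± 0.10; adjusted p = 0.0547). Foxo1 averaged 7.25 ± 0.221 CPM in Dnm3os cells and 6.98 ± 0.522 CPM in empty vector cells (SD, n = 2 each). Of the 10 metabolic effectors tested, 0 rose and 0 fell, with 1 higher and 1 lower by edgeR at an unadjusted p under 0.05. Beside the 12.2% called of all genes tested, 0 calls among so few genes do not show that either role was unchanged. The glucose transporter gene Slc2a1 averaged 248 ± 15.7 CPM in Dnm3os cells and 237 ± 11.9 CPM in empty vector cells, and the insulin-responsive Slc2a4 had 6 and 8 counts in the Dnm3os libraries, against 9 and 10 in the empty vector libraries.

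**Figure D4:**
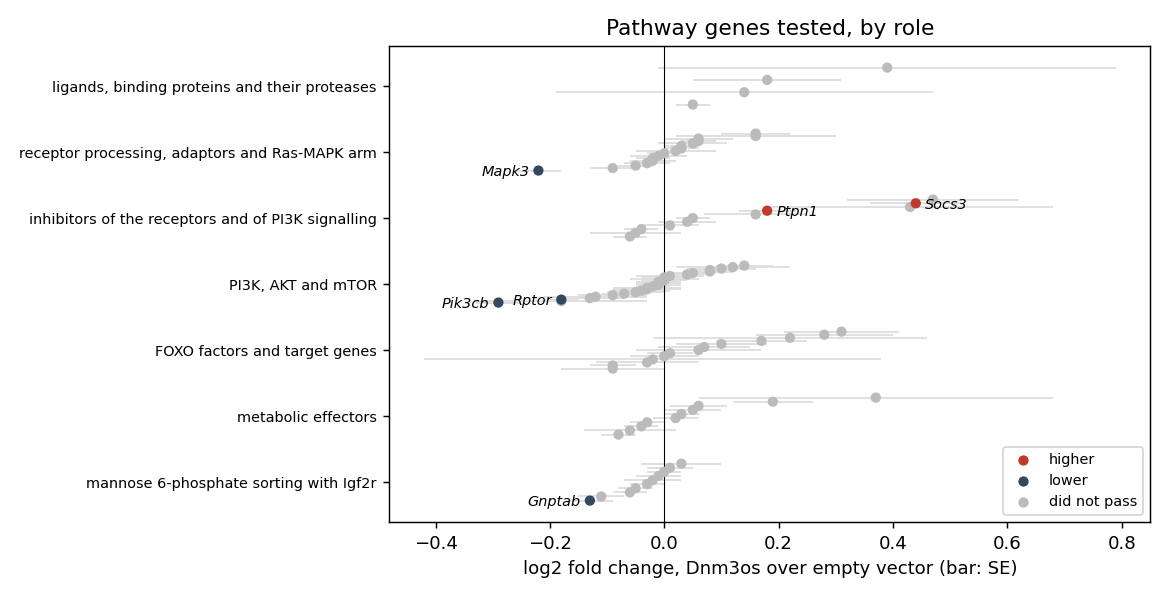
Log2 fold change, Dnm3os over empty vector, with its SE (horizontal axis) for the 90 pathway genes tested, 1 point a gene, in rows by role. Red points rose (2 genes), dark blue points fell (4 genes) and grey points did not pass. Most points lie close to 0.

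Genes with a profile over the 4 libraries near that of Igf1 were sought by Euclidean distance between log2 CPM values centred on each gene's mean. The search covered 9579 genes with a mean of at least 5 CPM, predicted genes (Gm, LOC and Rik names) being left out. Igf1 itself, with a mean of 3.74 CPM, lay below that limit, so genes at its own level were not searched. The nearest genes were Spink5, a serine protease inhibitor gene (distance 0.29), Nos2, the inducible nitric oxide synthase (0.40), Ctsc, the lysosomal protease cathepsin C (0.42), Clec4n, the fungal receptor dectin-2 (0.51), and Cd52, a leukocyte surface antigen (0.62). Spink5 averaged 89.9 ± 1.97 CPM in Dnm3os cells and 19.3 ± 2.88 CPM in empty vector cells, and Nos2 averaged 22.2 ± 2.57 CPM in Dnm3os cells and 4.81 ± 1.39 CPM in empty vector cells (SD, n = 2 each). They were between 3.75-fold (Cd52) and 6.30-fold (Ctsc) higher in Dnm3os cells, a size and direction fixed by choosing them for their likeness to Igf1 over these same libraries.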

How the data were processed

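By RNA sequencing, 2 Dnm3os and 2 empty vector libraries of RAW 264.7 cells were compared. The submitters' processing notes name TopHat, Bowtie2, DESeq2 and the build mm9; neither the read counter nor strandedness is given in the sources used here. The authors deposited raw read counts for 35786 RefSeq transcripts, and a normalized signal column (raw count multiplied by a library constant), which was not used here. Transcripts were named from RefSeq (35499) and GENCODE (178) tables, and 109 without a name (0.246 to 0.276% of the counts) were dropped. Then 1 transcript per gene was kept, leaving out 39.6% of all counts. Replicates of a group differed by more than sampling noise (chi-square per degree of freedom 4.75 for Dnm3os and 5.94 for empty vector).

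Genes passing filterByExpr were scaled with TMM and tested with edgeR 4.0.16 (glmQLFit, robust; R 4.3.3) on all 4 libraries; SEs were obtained by dividing the absolute log2 fold change by the root of the F statistic. The script was tested on simulated data. Alternatives were DESeq2 1.42.0 or its size factors, limma-voom (limma 3.58.1), other filters, summed isoforms, a replicate block and each library left out; a fit without a library assumes that the lone library left varies like the others. The members, lists and tests were chosen with earlier results of these data known. Genes named by rule were the members, Dnm3os, up to 5 called genes per pathway role (smallest adjusted p) and the 5 genes nearest to Igf1. Other genes of the pathway list, and single markers such as Adgre1, were named after their values were seen. Promoter windows come from RefSeq on GRCm38.p6.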

Additional observations from a re-analysis of the deposited data

How the results depend on the processing

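Over the 12 alternatives, 16 named genes gave 192 log2 fold changes, of which 0 changed sign, 14 lost the call and 2 gained it. The changes fell on Igf2r, Insr, Gnptab, Ptpn1, Socs3 and Nos2, the last losing its call with a replicate block (adjusted p = 0.148 by edgeR). Igf1 ranged from 2.17 to 2.68 and was called throughout. Members called higher stayed at 1. Without a filter on low counts, 3 members were called lower. Members called lower numbered 1 by DESeq2, 1 by limma-voom and 1 with isoforms summed, and 1 to 3 with each library left out. Pathway genes called higher numbered 1 by DESeq2, 4 without a filter on low counts and 2 to 9 with each library left out, and those called lower 3 to 5. Over all genes, 851 were called higher and 758 lower; DESeq2 called 398 and 359, and leaving out each library gave 434 to 802 higher and 372 to 784 lower.

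The shared replicate numbers pair nothing that the labels name, and the deviations of same-numbered libraries from their group means were weakly and negatively correlated (-0.161 over 10603 genes). With the number as a replicate block 825 genes were higher and 751 lower, with 3 pathway genes higher. With the numbers of the empty vector libraries crossed, an alternative chosen after seeing the data, 1058 were higher and 949 lower, with 8 pathway genes higher. The causes of these changes were not tested. With 2 libraries a group, small differences such as that of Igf2r are at the limit of what the spread allows.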
